A study of Mus musculus with 6 samples.

Results

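The members described here are 10 genes, most of them read out when Notch signalling is active or needed to read it. They are the basic helix-loop-helix (bHLH) factors Hes1, Hes3, Hes5, Hes6, Hey1, Hey2 and Heyl, and Nrarp, Lfng and Rbpj. They were chosen by name, and all 18 of their single-gene probe sets were read on every array, out of 18194 genes named on the array. Lfng and Rbpj are parts of the pathway as well as responders to it in some tissues, and Hes6 is known to counteract Hes1. The members are thus not all plain targets.

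Gene expression was measured on Affymetrix mouse whole-genome arrays in neurospheres, floating balls of dividing cells, from C57BL/6J mice, all at passage 3. The first group, rNCSC, holds 3 arrays of neurospheres from dorsal root ganglia (DRG), the sensory ganglia beside the spinal cord, of embryonic day 12.5. Its cells are described in the labels as neural crest stem cells that were reprogrammed in culture and can form central nervous system (CNS) progeny. The second group, pNCSC, holds 3 arrays of palate neurospheres of adult animals (6 to 8 weeks), with tissue of 3 to 5 mice, described as not inducing CNS progenitor markers. Both media held EGF (20 ng/ml), heparin and basic FGF, and the labels name no transgene or genetic change in either group. Basic FGF is given as 20 or 40 ng/ml and the B27 supplement as 1% or 3%, without saying which culture received which. Source tissue, donor age and possibly medium change together between the groups and cannot be told apart. Nothing in the labels says that replicates were grown separately, so every p-value here refers to the spread between these 6 samples. It may be technical in part, although the sex-linked transcripts given below differ between rNCSC replicates.

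Notch is a receptor that is cut after it binds a ligand on a neighbouring cell, and the freed intracellular part enters the nucleus and joins Rbpj, which sits on DNA and otherwise represses the same genes. The classical targets are Hes and Hey genes, Hes6 not among them, and their products repress proneural genes, which keeps neural progenitors undifferentiated. In the developing brain Hes1 and Hes5 mark radial glia and neural stem cells, whereas Hey genes are also known from blood vessels, mural cells and the heart.

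Promoter sequences are shown for members that hold TGGGAA, the core of the known binding site of Rbpj. RefSeq promoter sequences (GRCm38.p6, 250 bases before to 50 after a transcription start) matched 6 of the 10 members with 8 windows. Both strands were searched for TGGGAA, and 4 members held a match, Hes5, Hey2, Lfng and Rbpj, in 5 windows. The same core is in 25.6% of all 32851 windows of that length, so a match is common. The first window of each of these genes is printed 5′ to 3′ on the gene's strand, with TGGGAA or its reverse complement in capitals.
Hes5, chr4:154960673-154960972, plus strand: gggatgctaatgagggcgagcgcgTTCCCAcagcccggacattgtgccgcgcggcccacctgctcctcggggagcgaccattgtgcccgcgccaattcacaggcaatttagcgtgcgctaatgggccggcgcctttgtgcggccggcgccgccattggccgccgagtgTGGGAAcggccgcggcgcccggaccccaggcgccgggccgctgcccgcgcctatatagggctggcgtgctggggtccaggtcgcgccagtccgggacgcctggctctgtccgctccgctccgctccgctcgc
Hey2, chr10:30842734-30843033, minus strand: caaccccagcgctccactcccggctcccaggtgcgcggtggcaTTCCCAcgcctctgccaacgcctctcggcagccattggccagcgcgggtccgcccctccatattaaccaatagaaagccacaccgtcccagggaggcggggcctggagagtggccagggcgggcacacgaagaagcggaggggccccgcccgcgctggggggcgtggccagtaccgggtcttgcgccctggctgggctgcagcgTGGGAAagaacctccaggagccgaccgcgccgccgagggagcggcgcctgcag
Lfng, chr5:140607091-140607390, plus strand: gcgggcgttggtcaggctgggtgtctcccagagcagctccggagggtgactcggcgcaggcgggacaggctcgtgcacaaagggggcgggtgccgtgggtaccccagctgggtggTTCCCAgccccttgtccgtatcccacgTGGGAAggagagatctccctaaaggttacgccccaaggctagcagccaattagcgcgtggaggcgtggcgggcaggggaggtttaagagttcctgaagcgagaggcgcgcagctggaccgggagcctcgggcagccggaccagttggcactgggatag
Rbpj, chr5:53590096-53590395, plus strand: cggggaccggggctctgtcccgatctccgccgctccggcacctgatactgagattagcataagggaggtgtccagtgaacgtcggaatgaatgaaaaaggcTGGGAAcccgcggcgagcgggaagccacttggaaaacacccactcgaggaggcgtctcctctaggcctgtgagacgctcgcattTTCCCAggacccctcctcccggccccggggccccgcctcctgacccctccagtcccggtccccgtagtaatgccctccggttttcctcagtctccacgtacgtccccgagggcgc
In Hes5 the matches began 226 and 82 bases before the start, in Hey2 at 207 and 3 bases, in Lfng at 135 and 108 bases, and in Rbpj at 149 and 65 bases. CACGNG, a box bound by Hes and Hey proteins, was in 3 of the 8 windows (Hes6, Nrarp and Lfng) and in 27.5% of all windows. In Lfng a CACGTG box that began 112 bases before the start overlapped the second TGGGAA. The N box CACNAG was in 3 of the 8 windows (1 of Hes6, Nrarp and Lfng) and in 42.5% of all. The Lfng match of CACNAG lay on the same bases as a match of CACGNG, 181 bases before the start. The windows of Nrarp and Hes6 held no TGGGAA, which says only that these letters are not there.

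Values are log2 levels after GCRMA, and a value under 4 is treated as dim. Because each array was quantile normalized, levels are relative, and fewer cells of a type and less RNA per cell cannot be told apart. Between 50.2% and 50.6% of probe sets reached 4 on each array. Arrays of a group correlated at r = 0.988 to 0.996 and arrays of different groups at 0.833 to 0.844 over all probe sets. The first principal component, with 93.3% of the variance, separated the groups. The second, with 2.57%, set pNCSC replicate 1 apart from the other two. Xist was high (11.38) on rNCSC replicate 1 and at 2.73 to 3.12 on the other 5 arrays, which carried the Y-linked Kdm5d at 6.76 or more instead. The mast cell gene Cpa3 was at 6.45, 10.53 and 11.82 on pNCSC replicates 1, 2 and 3. The part of these array differences in the results was not tested directly. The range of each tested member's difference over the fits without 1 array is given below.

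The genome-wide background is wide. By limma with Benjamini-Hochberg adjustment at 0.05, 8596 of 11722 tested genes were called (73.3%), 40.2% higher and 33.1% lower in rNCSC, and the groups did not overlap in 78.2%. Of the 10 members, 8 were bright enough to test (4 or more on at least 3 arrays). Hes5, Hes6, Hey1, Hey2, Nrarp and Lfng were higher in rNCSC, Rbpj was lower, and Hes1 did not pass. Hes3 and Heyl were dim on all 6 arrays. Hes5, Hey1 and Nrarp reached 4 on the rNCSC arrays alone, so they could enter the test only by differing. The median difference of the 8 tested members was 3.46 on the log2 scale beside 0.12 for all genes tested. Differences of at least 4-fold were found in 7 of the 8 members and in 2935 (25%) of all genes tested. When limma's treat asked for a difference beyond 1 on the log2 scale, 33.2% of all genes tested passed, and the same 7 members did. With so many genes called, and with members chosen by knowledge of earlier results, these counts describe the list and do not set it apart.

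**Figure D1:**
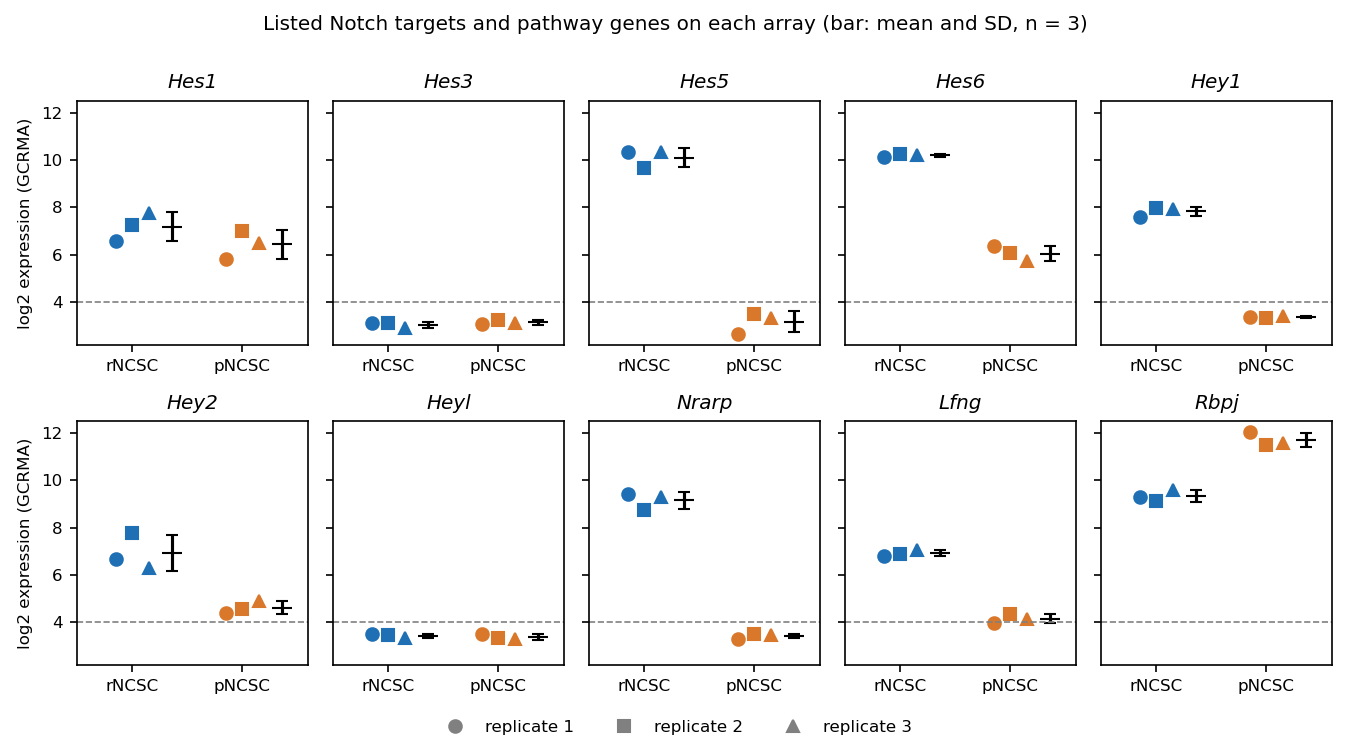
Log2 expression (GCRMA, vertical axis) of each member on the 3 rNCSC (blue) and 3 pNCSC (orange) arrays, with symbols for replicates, the mean and SD (n = 3) as a bar, and a dashed line at 4. Hes5, Hey1 and Nrarp lie above the line in rNCSC only, Rbpj is higher in pNCSC, Hes1 overlaps, and Hes3 and Heyl stay under the line on all arrays.

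Among the Hes genes, Hes5, a Notch-induced repressor of radial glia and neural stem cells, had the largest difference of the members. Hes5 was at 10.32, 9.65 and 10.33 on rNCSC replicates 1, 2 and 3 and at 2.67, 3.51 and 3.32 on the pNCSC arrays. All rNCSC arrays were thus bright and all pNCSC arrays dim. The log2 difference was 6.94 (SE 0.28, limma adjusted p = 1.9e-06). With dim arrays set to 4, Hes5 was at least 68.7-fold higher in rNCSC on its brighter probe set. It ranked 66 among the 11722 genes tested, counted from the largest difference towards rNCSC. That probe set ends in _x_at, a mark of probe sets that can also bind related sequences. The other Hes5 probe set, without such a mark, was at 8.59, 7.84 and 8.90 in rNCSC and at 3.63 to 3.77 in pNCSC, with a smaller log2 difference of 4.76 (limma adjusted p = 6.0e-06 over all probe sets). The gene averaged over both probe sets differed by 5.85. All 3 ways had the same direction, while the size of the change depended on the probe set.

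Hes6, a factor of the same family that is known to counteract Hes1 and to promote neuronal differentiation, was above 4 on all arrays and higher in rNCSC. Hes6 was at 10.13, 10.24 and 10.23 in rNCSC and at 6.36, 6.06 and 5.73 in pNCSC. The rNCSC arrays lay within 0.11 of each other, and the groups were far apart. The log2 difference was 4.15 (SE 0.17), a 17.8-fold difference (limma adjusted p = 2.2e-06). A second Hes6 probe set differed by 3.87 (limma adjusted p = 2.1e-06), from 8.58 ± 0.03 (SD, n = 3) in rNCSC and 4.71 ± 0.31 in pNCSC. Its pNCSC values of 5.05, 4.61 and 4.45 lay near the dim limit. The first probe set ends in _x_at, as in Hes5, and the second in _a_at, so Hes6 had no probe set without a marked ending.

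Hes1, the broadly expressed Notch target of many progenitor cells, was present in both cultures. It was at 6.56, 7.25 and 7.76 in rNCSC and at 5.81, 7.01 and 6.49 in pNCSC, and the groups overlapped: pNCSC replicate 2 was above rNCSC replicate 1. The log2 difference was 0.75 with a 95% interval of -0.19 to 1.70 (limma adjusted p = 0.13), so differences on both sides of 0 lay within it. Hes1 passed the test without rNCSC replicate 1 (log2 difference 1.07, limma adjusted p = 0.045), the array with high Xist, and in the other 5 fits that left out an array its adjusted p ranged up to 0.34. Hes3, which is known from early neural tube progenitors, was at 2.90 to 3.13 in rNCSC and 3.08 to 3.26 in pNCSC, dim on all arrays.

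Of the Hey genes, Hey1 and Hey2, Notch targets known from blood vessels and also from neural progenitors, were higher in rNCSC. Hey1 was at 7.60, 7.96 and 7.93 in rNCSC and at 3.38, 3.34 and 3.39 in pNCSC, with no overlap. With the dim pNCSC arrays set to 4 it was at least 14.2-fold higher in rNCSC (log2 difference 4.46, SE 0.13, limma adjusted p = 5.7e-07). Hey2 was at 6.69, 7.79 and 6.29 in rNCSC and at 4.37, 4.56 and 4.92 in pNCSC. The rNCSC arrays had the widest range of any member in either group, but the lowest of them was above the highest pNCSC array. The log2 difference of Hey2 was 2.31 (SE 0.38), or 4.95-fold (limma adjusted p = 0.0015). Without rNCSC replicate 2, the highest array, the difference was 1.88 and the call held. Heyl, known from smooth muscle and pericytes, had 3 probe sets, and all were under 4 on all 6 arrays, the brightest at 3.28 to 3.52.

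**Figure D2:**
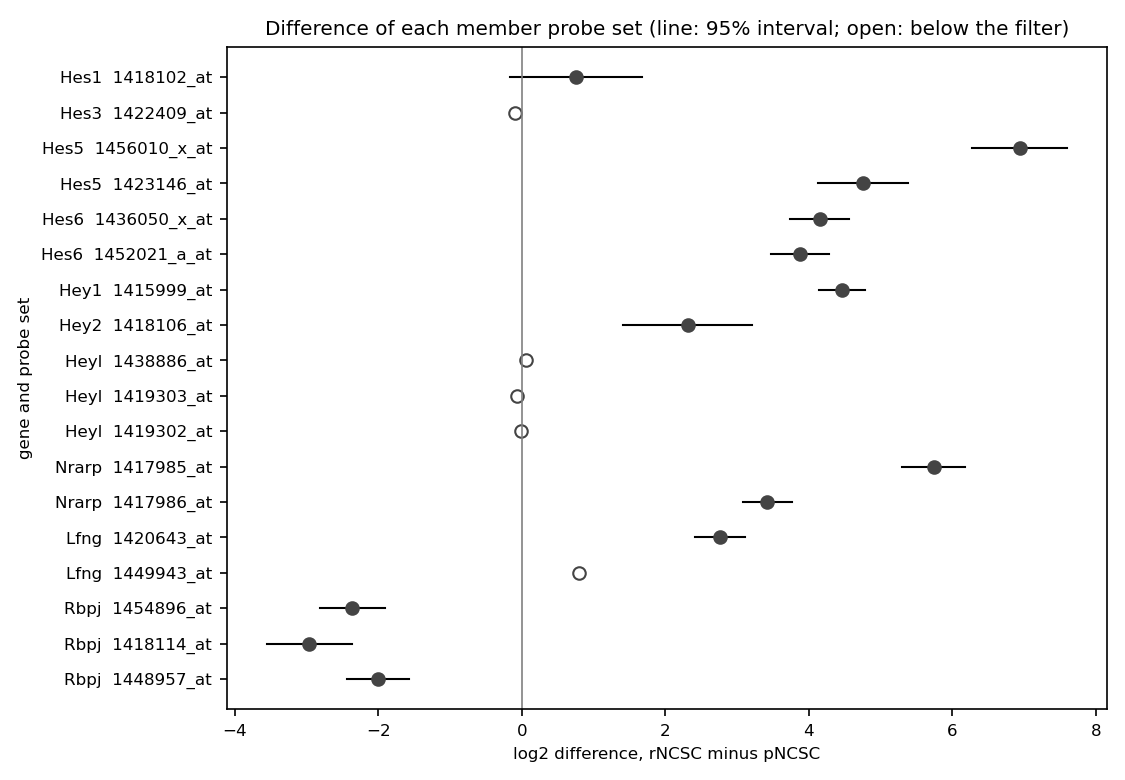
Log2 difference, rNCSC minus pNCSC (horizontal axis), for each of the 18 member probe sets (vertical axis), with the 95% interval for those tested and open circles for the 5 under the filter. The probe sets of Hes5, Hes6, Nrarp and Lfng lie to the right and all 3 of Rbpj to the left.

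Nrarp, a small ankyrin-repeat protein that binds the Notch intracellular part with Rbpj and limits Notch signalling, was among the members furthest towards rNCSC. It was at 9.42, 8.76 and 9.29 in rNCSC and at 3.31, 3.49 and 3.46 in pNCSC, bright on all rNCSC arrays and dim on all pNCSC arrays. On its brighter probe set it was at least 35.7-fold higher in rNCSC (log2 difference 5.74, SE 0.19, limma adjusted p = 8.2e-07). It ranked 151 of 11722 towards rNCSC. Its second probe set differed by 3.42 (limma adjusted p = 1.6e-06), from 6.51 ± 0.22 in rNCSC to 3.09 ± 0.09 in pNCSC, and the average of both by 4.58.

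Lfng, which adds a sugar to Notch receptors and so changes which ligands they answer to, was at 6.81, 6.87 and 7.06 in rNCSC and at 3.97, 4.37 and 4.12 in pNCSC. The groups did not overlap, and the pNCSC arrays lay near the dim limit. The log2 difference of Lfng was 2.76 (SE 0.15), or 6.78-fold (limma adjusted p = 6.2e-06). Its other probe set was dim on all arrays, at 3.39 to 3.84 in rNCSC and 2.81 to 2.83 in pNCSC. The mean of both probe sets differed by 1.78 (limma adjusted p = 2.2e-05). Rfng, a related enzyme, was 1.37-fold higher (limma adjusted p = 0.035), a call lost without any array but rNCSC replicate 2, at adjusted p between 0.069 and 0.1. Mfng, the remaining fringe gene, was at 4.30, 3.85 and 4.54 in rNCSC and 3.08 to 3.11 in pNCSC, bright on only 2 arrays and not tested.

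Rbpj, the DNA-binding protein that carries the Notch signal to its targets and represses them without it, was the one member lower in rNCSC. It was at 9.30, 9.12 and 9.59 in rNCSC and at 12.03, 11.51 and 11.56 in pNCSC, with bright values on all arrays and no overlap. Rbpj was 5.16-fold lower in rNCSC (log2 difference -2.37, SE 0.19, limma adjusted p = 4.8e-05). Each of its 3 probe sets went the same way, at -2.37, -2.96 and -2.01 (limma adjusted p of 3.7e-05, 4.6e-05 and 6.5e-05 over all probe sets). Rbpj thus went opposite to 6 other members. The highest pNCSC value came from replicate 1, the array that stood apart, and without it the difference was -2.20 and the call held.

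**Figure D3:**
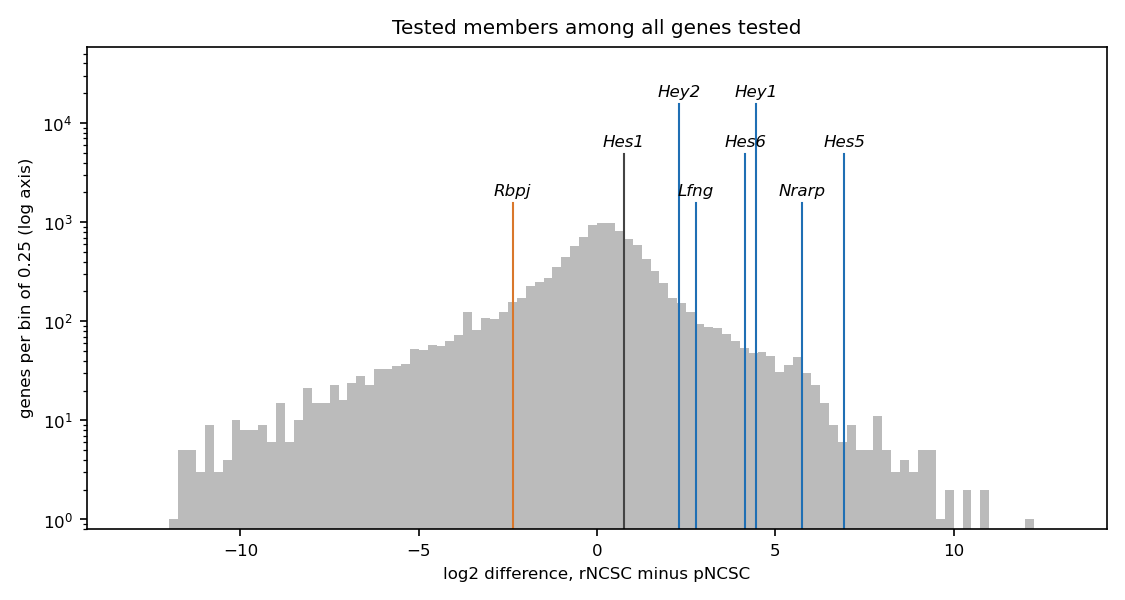
Number of genes (vertical axis, log scale) by log2 difference, rNCSC minus pNCSC (horizontal axis), over the 11722 genes tested, with the 8 tested members as lines. Hes5 and Nrarp lie far to the right, Hes1 near the centre and Rbpj to the left.

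The members varied among themselves in how far they moved, from 0.75 in Hes1 to 6.94 in Hes5, and in their spread. The SD on 3 arrays was 0.06 for Hes6 in rNCSC and 0.78 for Hey2, beside a median over all genes tested of 0.16 in rNCSC and 0.19 in pNCSC. Hes1 had a high SD in both groups (0.60 and 0.60). Over all probe sets 9 of 13 member probe sets tested were higher and 3 lower in rNCSC, against 40.5% and 32.1% of the 21404 probe sets tested. The 3 genes most like Hes5, by the distance between their 6 values after subtraction of each gene's mean, were Mir124-2hg, a host gene of a neuronal microRNA, the early neural factor gene Sox3 and Adgrb3, at 0.67, 0.71 and 0.77 log2 units. Those most like Rbpj were Foxk1, Tapbpl and Tcaf2, at 0.26, 0.26 and 0.31. Sox3, for instance, was at 10.30, 9.76 and 10.58 in rNCSC and at 3.51, 3.59 and 3.76 in pNCSC, so rNCSC replicate 2 was the lowest rNCSC array in it as in Hes5. Foxk1 was at 6.21, 6.09 and 6.36 in rNCSC and at 8.90, 8.41 and 8.68 in pNCSC, highest on pNCSC replicate 1 as Rbpj was. In 2 groups of 3 arrays such a distance mostly reads the difference between the cultures and is given as a description.

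The other genes of the pathway, from lists chosen by role, went both ways. Of 69 genes measured, 53 were bright enough to test, 23 being higher and 14 lower in rNCSC and 16 not called. Their median difference was 0.29 beside 0.12 for all genes tested. The counts stand beside the 40.2% and 33.1% of all genes tested.

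Among the receptors, Notch1 was 5.00-fold higher in rNCSC, at 11.46 ± 0.09 (SD, n = 3) against 9.14 ± 0.19 (limma adjusted p = 1.0e-05). Notch2 was 2.79-fold lower, at 9.59 ± 0.59 against 11.07 ± 0.28 (limma adjusted p = 0.0043), and 1.81-fold lower with the mean of its probe sets. Notch3 (log2 difference 0.56, SE 0.37) and Notch4 (0.40, SE 0.49) did not pass, but Notch3 passed without rNCSC replicate 1 (1.00, limma adjusted p = 0.0015) and Notch4 without pNCSC replicate 1 (0.99, limma adjusted p = 0.007). Of 8 ligands and ligand-like genes, 4 were bright enough to test. Dner, a neuronal ligand-like protein, was 70.2-fold higher in rNCSC (13.07 ± 0.11 against 6.94 ± 0.05, limma adjusted p = 8.1e-08). Dll3 was at least 14.7-fold higher (limma adjusted p = 4.5e-06) and Dll1, a ligand of neural progenitors, 2.80-fold (limma adjusted p = 0.00065). Jag1, a ligand that is bright in both cultures, differed by -0.21 (SE 0.34) and did not pass. Dll4, Jag2, Dlk1 and Dlk2 did not pass the filter.

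Of 11 tested genes for receptor glycosylation and processing, 3 were higher and 5 lower in rNCSC. The gamma-secretase subunit Aph1b was 3.05-fold higher (limma adjusted p = 7.2e-05), and Aph1a was 1.28-fold and Rfng 1.37-fold higher. The Aph1a call was lost without rNCSC replicate 2 or 3 or pNCSC replicate 3, at adjusted p between 0.054 and 0.087, and with the mean of its probe sets (0.25). The lower genes included Psen2, a catalytic subunit of gamma-secretase, which was at 4.53 ± 0.04 in rNCSC and 9.07 ± 0.53 in pNCSC, 23.3-fold lower (limma adjusted p = 9.2e-06). The mean of Psen2's probe sets gave 4.55-fold (limma adjusted p = 2.7e-05), and its other probe set, the one without an _s_at, _x_at or _a_at ending, was dim on all 6 arrays (3.51 to 3.86) and not tested. The receptor-cleaving protease Furin was 5.07-fold lower (limma adjusted p = 4.3e-05) and the gamma-secretase subunit Ncstn 2.66-fold (limma adjusted p = 0.00011). Adam17, a sheddase, was 1.99-fold and Adam10, another, 1.39-fold lower, the latter call being lost without rNCSC replicate 1 or 3 or pNCSC replicate 3, at adjusted p between 0.059 and 0.066. Pofut1, Poglut1 and Psenen did not pass, but Psenen passed without pNCSC replicate 2 (limma adjusted p = 0.02) and Pofut1 with the mean of its probe sets (0.025, lower in rNCSC).

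Of 13 tested nuclear cofactors, 5 were higher and 3 lower in rNCSC. The histone deacetylase gene Hdac2 was 2.25-fold higher (limma adjusted p = 0.00037). Snw1, Kat2a, Kat2b and Spen were between 1.29-fold and 1.39-fold higher, and each of these 4 calls was lost in at least 1 fit without an array. Snw1 was lost without rNCSC replicate 3 (limma adjusted p = 0.057) and with the mean of its probe sets (0.35), Kat2a without rNCSC replicate 2 or 3 or pNCSC replicate 3 (0.053 to 0.072), Kat2b without any array but pNCSC replicate 1 (0.066 to 0.13) and, being under the filter, with probe sets without these endings, and Spen without any array but rNCSC replicate 1 (0.05 to 0.14). Tle1, a corepressor that Hes proteins recruit, was 4.19-fold lower, at 9.12 ± 0.85 against 11.18 ± 0.31 (limma adjusted p = 0.0037). Maml1, the coactivator that joins Notch and Rbpj, was 2.13-fold lower (limma adjusted p = 0.00066) and Cir1, an Rbpj corepressor, 2.07-fold (limma adjusted p = 0.00055). Ep300, Hdac1, Tle2, Tle3 and Tle4 did not pass. Tle3 passed without rNCSC replicate 2 (limma adjusted p = 0.0038) and with the mean of its probe sets (0.017). In that last setting Ep300 passed too (0.038), lower in rNCSC at an unchanged log2 difference of -0.32.

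Of 12 genes for turnover and endocytosis of the receptor and ligand, 6 were higher in rNCSC. Dtx4, a member of the Deltex family of ubiquitin ligases, was 21.9-fold higher, at 8.59 ± 0.69 against 4.14 ± 0.29 (limma adjusted p = 4.1e-05). On its brightest probe set Dtx1, itself a Notch target in several cell types, was at least 2.99-fold higher (limma adjusted p = 7.4e-06). With the mean of a gene's probe sets the log2 difference fell from 4.45 to 2.65 for Dtx4 and from 2.41 to 1.23 for Dtx1, and both calls held. Dtx1 was under the filter when probe sets without these endings were preferred. Fbxw7, which marks the Notch intracellular part for degradation, was 3.41-fold higher (limma adjusted p = 0.00016). Neurl1b, Mib1 and Itch were also higher, Neurl1b at least 3.14-fold, Mib1 1.97-fold and Itch by 0.58 on the log2 scale (limma adjusted p = 0.00086, 0.00063 and 0.0045). Numbl was 1.56-fold lower (limma adjusted p = 0.0063), and Numb, Dtx2, Dtx3, Mib2 and Neurl1a did not pass.

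Of the other Hes-like and inhibitory bHLH genes, 5 were bright enough to test. Id2, an inhibitor of bHLH activators, was 2.94-fold higher in rNCSC (limma adjusted p = 0.00028), whereas Id1 was 7.62-fold, Id4 7.47-fold and Bhlhe40 3.60-fold lower (limma adjusted p = 8.9e-05, 0.0049 and 0.00027). Id3 was 1.75-fold lower, a call lost without rNCSC replicate 3 (limma adjusted p = 0.059) or pNCSC replicate 2 (0.051). Id4 was uneven in rNCSC, at 5.02, 7.48 and 5.30, with replicate 2 high, and without that array its log2 difference was -3.68 in place of -2.90. Hes2, Hes7 and Bhlhe41 were dim. Of the 11 measured proneural and Olig bHLH genes, which Hes proteins are known to repress in part, all lay under 4 on every pNCSC array. Neurod1 was at least 13.5-fold higher in rNCSC (limma adjusted p = 9.4e-06), Olig1 at least 637-fold and Olig2 at least 431-fold. Neurod4 was at least 7.95-fold higher on its brightest probe set (limma adjusted p = 0.00069). Neurod4 was highest on rNCSC replicate 1 (8.39 against 6.23 and 6.35), without which its log2 difference was 3.22 in place of 3.92. With the mean of its probe sets it was 2.76. These 4 genes, like Dll3, Dtx1 and Neurl1b, were under 4 on all pNCSC arrays and could enter the test only by being high in rNCSC. The other 7 genes of this list reached 4 on fewer than 3 arrays and were not tested, among them Neurog2, which was at 4.12, 3.31 and 4.63 in rNCSC.

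**Figure D4:**
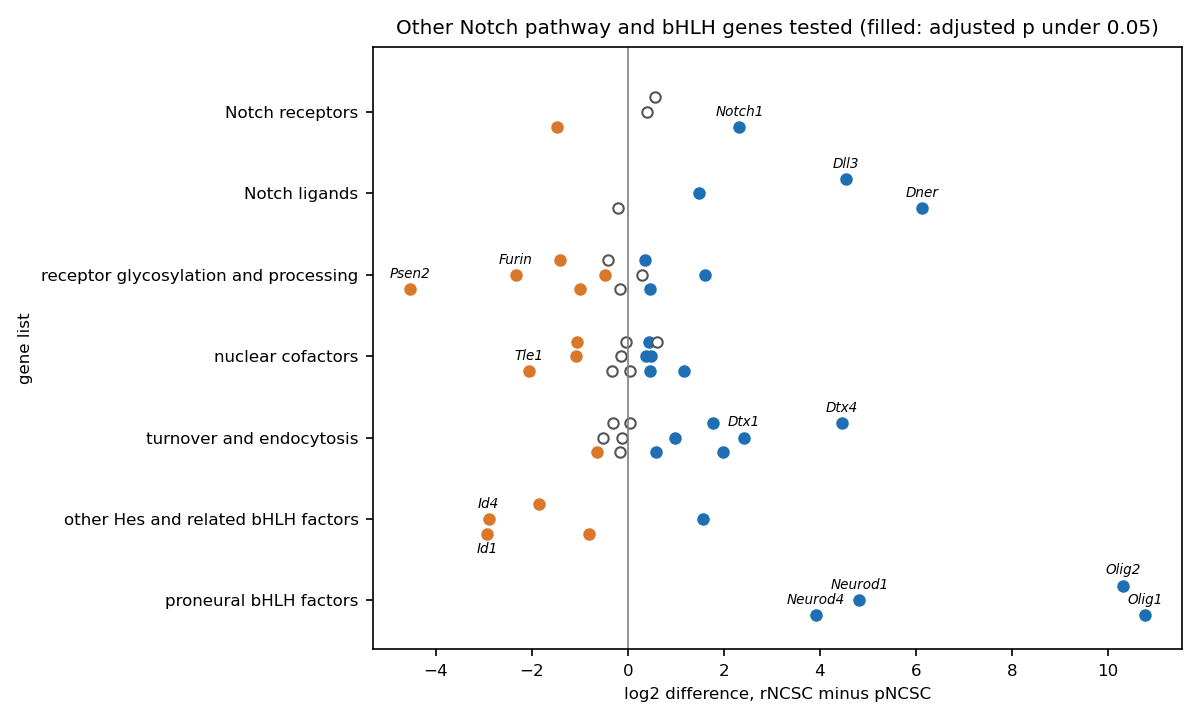
Log2 difference, rNCSC minus pNCSC (horizontal axis), of each of the 53 tested genes of the 7 pathway lists (a row per list, points spread for clarity), blue for higher, orange for lower and open for not called. Names are given beyond a difference of 2. Dner, Dll3, Dtx4 and the Olig genes lie to the right and Psen2 to the left.

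The cultures also differed in markers of many cell types, whose part in these results was not tested. Of all genes tested, 40.2% were higher and 33.1% lower in rNCSC. All 8 CNS progenitor and radial glia markers were higher in rNCSC, with a summed linear signal of 56255 to 61441 there and 1037 to 1519 in pNCSC. Sox1, Sox3, Pax6 and Rfx4 were under 4 on all pNCSC arrays, whereas Sox2 was bright there too, at 9.97, 9.53 and 10.24. Of the 6 neuron markers, Tubb3, Elavl3, Elavl4 and Rbfox3 were tested and higher in rNCSC, and Dcx and Stmn2 did not pass the filter (summed signal 1217 to 2594 against 73 to 98). Elavl3, Elavl4 and Rbfox3 were under 4 on all pNCSC arrays. All 4 measured peripheral glia and neural crest markers, Sox10, Ngfr, Erbb3 and Foxd3, were lower in rNCSC and under 4 on each of its arrays (38 to 43 against 154 to 600). All 7 mesenchyme and fibroblast markers were lower in rNCSC (77 to 533 against 54739 to 66186), 5 of them under 4 on all rNCSC arrays. The pericyte and smooth muscle markers Pdgfrb, Rgs5, Abcc9, Kcnj8 and Acta2 were also lower (175 to 567 against 33702 to 38974). All of these but Acta2 were under 4 on all rNCSC arrays. Cspg4 was not called, and Tagln and Myh11 did not pass the filter. All 6 endothelial markers were under 4 on all arrays. Of 6 leukocyte markers Cd14, Trem2 and Cd53 were tested and lower in rNCSC (49 to 51 against 1169 to 3166). Ptprc, Tyrobp and Csf1r did not pass the filter. Of 4 mast cell markers Cpa3 and Cma1 were lower (36 to 75 against 139 to 5113). Kit was not called (log2 difference -0.27, limma adjusted p = 0.7), and Fcer1a did not pass the filter. Of 6 epithelial markers Krt18 and Epcam were lower (64 to 66 against 109 to 243). Krt5 was not called (limma adjusted p = 0.35), and Krt14, Krt8 and Cdh1 did not pass the filter. Cd14, Trem2, Cd53, Cpa3, Cma1 and Krt18 were under 4 on all rNCSC arrays. Markers under 4 on all arrays of a group could enter the test only by being high in the other group. By these markers the DRG culture was rich in CNS progenitor transcripts and low in those of peripheral glia and neural crest. The palate culture was rich in mesenchymal transcripts and in Pdgfrb, Rgs5, Abcc9 and Kcnj8.

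The 8 tested members kept their direction when 1 array at a time was left out, and the 7 called members stayed called. Over these 6 fits the log2 difference ran from 6.69 to 7.16 for Hes5, from 3.99 to 4.31 for Hes6 and from 4.39 to 4.58 for Hey1. Hey2 ran from 1.88 to 2.62, with limma adjusted p between 0.00059 and 0.0075. Nrarp ran from 5.61 to 5.94, Lfng from 2.67 to 2.87 and Rbpj from -2.49 to -2.20. Hes1 ran from 0.44 without pNCSC replicate 1 to 1.07 without rNCSC replicate 1. Of these fits, only the latter called Hes1 (limma adjusted p = 0.045).

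**Figure D5:**
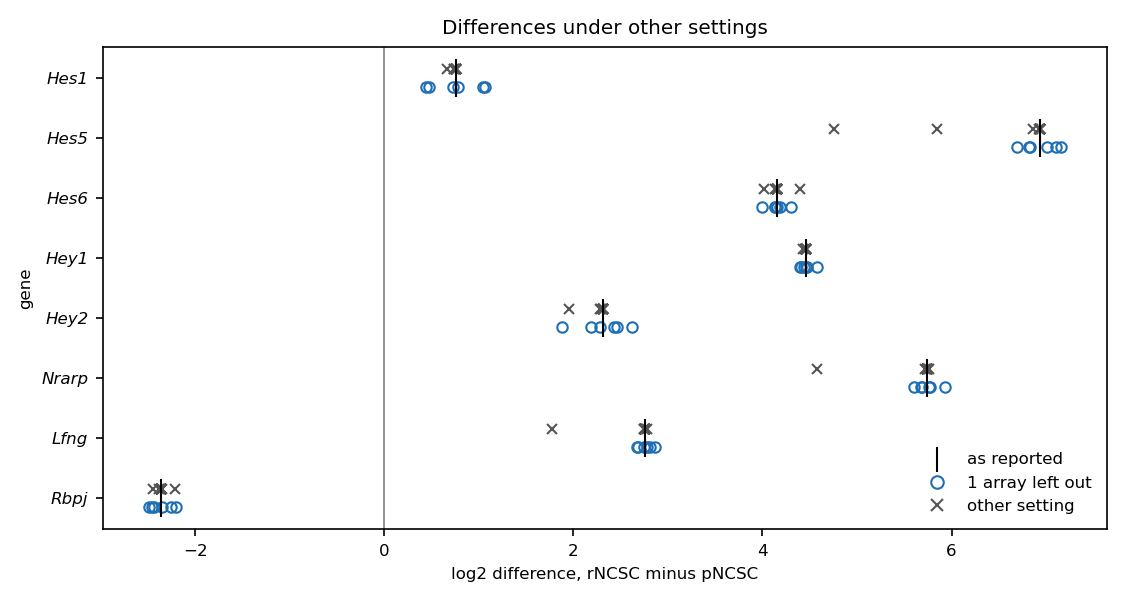
Log2 difference, rNCSC minus pNCSC (horizontal axis), of the 8 tested members (rows), as reported (black bar), with 1 array left out (circles) and under other settings (crosses). No value crosses 0. Hes1 runs from 0.44 to 1.07 and Hes5 from 4.76 to 7.16.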

How the data were processed

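The authors labelled 500 ng of total RNA per neurosphere sample and hybridised 1 array each, per the labels' protocols. Their deposited log2 values cover 45101 probe sets and came from GCRMA (submitters' processing notes, no settings given). The log2 scale was read from the range (1.22 to 15.58). Such values compress weak probe sets, and no further normalization was applied. Gene names came from the platform annotation, which gives 1 symbol for 34958 probe sets, several for 932 and none for 9211. Promoter sequences came from RefSeq.

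A single probe set, that of the highest mean, stood for each of 18194 genes, and 6472 genes at 4 or more on fewer than 3 arrays were left out. limma 3.58.1 in R 4.3.3 (lmFit, eBayes, no covariates) compared the groups, two-sided, with Benjamini-Hochberg adjustment over all genes and a threshold of 0.05. A second fit took each of 21404 probe sets as a row. With 3 arrays a group, the smallest p of an exact permutation test is 0.1. A fold against a group that lay under 4 on all 3 arrays is a lower bound for the probe set used, with that group set to 4. Precision is limited by 3 arrays per group. The limma step was tested on simulated data.

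The members, the lists and the tests were chosen with earlier results of these data known. Named were all members, up to 3 genes per direction of each list by adjusted p, all genes behind a count of 5 or fewer, and the 3 genes nearest to the members with the largest difference in each direction. Neurl1b, Mib1 and Itch fall outside these rules and complete the turnover genes called higher. Neurog2, Mfng, Xist, Kdm5d and Cpa3 were added after their values were seen. Alternatives covered the dim filter, the probe set, normalization, variance models, array weights, a replicate block, limma's treat and leaving out each array.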

Additional observations from a re-analysis of the deposited data

How the results depend on the processing

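Over 18 other settings the 144 differences of the 8 tested members kept their direction, and the 7 called members were called in each. Hes1 alone changed side, passing without rNCSC replicate 1 and with the replicate number as a block. With limma's treat beyond a log2 difference of 1, 1885 genes were higher and 2007 lower in rNCSC, 33.2% of all genes tested in all, and of the pathway lists 13 were higher and 6 lower, since treat asks for a larger difference. Leaving out 1 array gave 4315 to 4680 genes higher and 3588 to 3938 lower, 6 or 7 members higher and 1 lower, 9 or 10 member probe sets higher and 3 lower, and 17 to 22 pathway genes higher and 12 to 14 lower. Other settings moved calls of pathway genes. Array weights added Ep300, Jag1, Notch4, Numb, Psenen and Tle3 (limma adjusted p 0.012 to 0.049). Testing without the dim filter added Ep300 and lost Spen (0.053). It also added Dlk1, Dlk2, Mfng and Neurog2, which the filter had kept out of the main fit (0.00073 to 0.049 with Ep300). Of the genes not called, Tle4 turned to -0.046 with the mean of its probe sets and to -0.15 with array weights, and ran from -0.093 to 0.19 without an array. Hdac1 ran from -0.12 to 0.032. The cause was not tested. With the floor at 3 no member was under it on all arrays of a group, so no bound was needed. The titles give both groups replicate numbers 1 to 3, but same-numbered arrays did not deviate together (r = 0.035, -0.041 and -0.031). These values show no pairing by number but cannot exclude that same-numbered samples were handled together. With the replicate block 4445 genes were higher and 3721 lower, 7 members higher and 1 lower, Hes1 was called at 0.75 (limma adjusted p = 0.034), and Adam10, Aph1a, Kat2b and Spen were not (0.058 to 0.096).

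Limits are set by 3 arrays per group, by dim probe sets, whose differences GCRMA compresses, and by probe sets of 1 gene that differed in size of change, as in Hes5, Nrarp, Lfng, Psen2, Dtx1, Dtx4, Neurod4 and Notch2.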
